A study of Danio rerio with 8 samples.

Results

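RNA helicases of the DEAD-box and DEAH-box families that are not core helicases of the spliceosome were followed in zebrafish endothelial cells. Members were all rows of the count table whose gene symbol begins with ddx or dhx and a digit, without regard to case, leaving out ddx23, ddx41, ddx42, ddx46, ddx58, dhx8, dhx15, dhx16 and dhx38. This gave 44 of the 31901 genes in the table. Of these, 43 passed the filter on low counts and were tested. The exception, ddx19a (ENSDARG00000044325), had counts of 15, 20, 17 and 0 in mutant replicates 1 to 4 and 6, 0, 8 and 2 in sibling replicates 1 to 4. A few members, such as ddx39b, DDX5, DDX17 and DHX35, have products that also meet the splicing machinery, so the name of the group follows the rule and not a strict division of function.

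Cells positive for kdrl, the gene of a VEGF receptor of vessel endothelium, came from embryos of 28 hours post fertilization. The counts of both groups carry the label kdrlgfp, which names a GFP reporter of kdrl. Total RNA, depleted of ribosomal RNA, was sequenced in 4 libraries from sf3b1 mutants and 4 from siblings. sf3b1 encodes a subunit of the particle that binds the branch point of introns. The allele, the genotype of the siblings and the number of embryos in a library are not stated in the labels, nor is it stated that replicates came from separate clutches, so the p-values rest on a spread between samples that may be technical.

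RNA helicases use ATP to open RNA duplexes or to strip proteins from RNA. DEAD-box proteins, named for the letters of a conserved ATPase motif, open short duplexes locally, whereas the DEAH-box proteins move along a strand. A large share of both families works in the nucleolus, where ribosomal RNA is cut, folded and bound by proteins. Others carry mRNA to the nuclear pore, help ribosomes scan structured leaders, or hand mRNA over to decay.

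Levels below are CPM, the counts scaled to a common normalized library size, and errors of levels are SDs over the 4 libraries of a group. Changes are log2 fold changes of mutant over sibling ± SE. A gene passed when its p-value, adjusted over all 18289 genes tested, was under 0.05. The adjusted p-values are those of edgeR's quasi-likelihood test with Benjamini-Hochberg adjustment. Library totals ran from 10035886 to 13277963 counts. The sf3b1 transcript (SF3B1, ENSDARG00000056138) ranged from 149.6 to 188 CPM in the mutant libraries and from 212 to 354 CPM in the siblings, with no overlap (log2 fold change -0.87 ± 0.166, adjusted p = 0.00168). kdrl and the other 8 endothelial markers tested did not pass, and the sum of the endothelial list was 2499 to 5001 CPM in mutants and 2489 to 4170 CPM in siblings. Without mutant replicate 1, however, 3 of these markers passed upward, and 1 did without sibling replicate 3. None passed downward with 1 library left out, but 1 did under an alternative of another kind. Mutant replicate 4 and sibling replicate 2 stood apart in the principal components of earlier results of these data, and counts without both are given beside the main ones.

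More helicase transcripts were higher in mutants than lower. Of the 43 members tested, 14 rose, 1 fell and 28 did not pass. Thus 34.9% of the members passed, beside 21.3% of all genes tested. In the upward direction the share was 32.6%, beside 9.92% of all genes, and in the downward direction 2.33%, beside 11.4%. The median log2 fold change of the members was 0.48, a fold of 1.39, whereas the median over all genes was near 0 at -0.000397. An upward sign was found in 36 of 43 members, beside 50% of all genes. Without mutant replicate 4 and sibling replicate 2, 16 members rose and 1 fell, while 21.6% of all genes passed. Calls became fewer on leaving out some single libraries, both among the members and among all genes. Without mutant replicate 1, mutant replicate 2 or sibling replicate 3, 9 members rose each time. In either direction 10 of 43, 10 of 43 and 11 of 44 members passed, where 15 of 43 had passed with all libraries. The shares of all genes that passed were then 16.8%, 15.5% and 17.2%, where 21.3% had passed with all libraries. When only the more abundant genes were kept, with a smallest count of 50, 15 of 40 members rose and 1 fell. Of the 13078 genes tested then, 30.8% passed in either direction, and 49.0% of these calls were upward.

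In 18 members (41.9%, beside 26.7% of all genes) the groups did not overlap. In 15 of them every mutant library lay above every sibling library, and in 3 every mutant library lay below. Over all genes such separation was found upward in 12.6% and downward in 14.1%. All members that passed had groups that did not overlap. At least a doubling was reached by 5 of the members that rose, DDX56, ddx43, DDX51, DDX19A and DDX52, which is 11.6% of the members beside 6.29% of all genes. By name, 11 of 30 DEAD-box members rose and none fell, and 3 of 13 DEAH-box members rose and 1 fell. The shares that passed were 36.7% and 30.8%, beside 21.3% of all genes. The difference between these 2 shares was not tested.

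**Figure D1:**
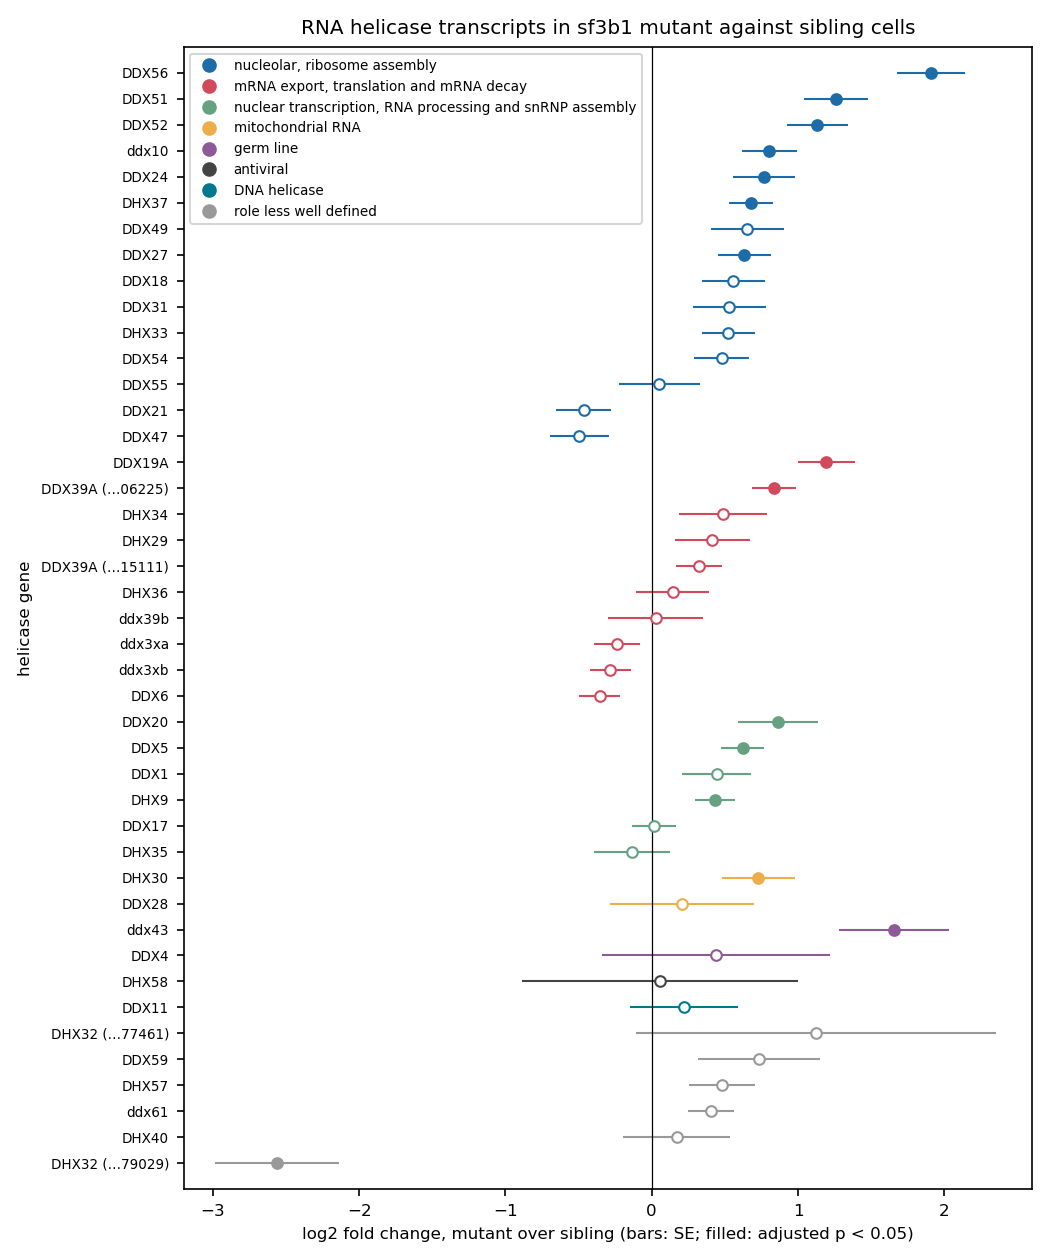
Log2 fold change of mutant over sibling (x axis) for the 43 helicase genes tested (y axis), coloured by role, with bars for the SE. Filled points passed an adjusted p of 0.05: 14 lie right of 0 and 1, a DHX32 gene at -2.56, lies left; digits in parentheses are the end of the Ensembl identifier where a symbol is shared.

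Markers of some other cell types differed between the groups as well. Of 6 erythroid markers tested 5 fell, of 9 leukocyte markers 8 fell, and of 9 neural markers 5 fell, beside 11.4% of all genes. The summed erythroid markers stood at 2054 to 3048 CPM in mutants and 4181 to 8490 CPM in siblings, the leukocyte markers at 139.7 to 309 and 717 to 958 CPM, and the neural markers at 399 to 437 and 965 to 1458 CPM. Of 8 skeletal muscle markers 3 rose, beside 9.92% of all genes, with sums of 231 to 519 and 203 to 312 CPM. Of 6 neural crest and pigment markers tested 1 rose (16.7%, beside 9.92% of all genes), while 3 changes were positive and 3 negative. The groups overlapped for each of these markers, and the sums were 57.9 to 118 and 45.5 to 76.6 CPM. In pooled cells, fewer cells of a type and less RNA per cell cannot be told apart, and the part of these shifts in the helicase results was not tested.

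The nucleolar helicases, which serve ribosome assembly, formed the largest role group. Of 15 members, all tested, 7 rose, none fell and 8 did not pass, with a median log2 fold change of 0.63. The share that passed was 46.7%, beside 21.3% of all genes. The 7 were DDX56, DDX51, DDX52, ddx10, DDX24, DHX37 and DDX27. The summed level of the group was 1551, 1334, 1103 and 1272 CPM in mutant replicates 1 to 4 and 967, 1200.3, 756 and 879 CPM in sibling replicates 1 to 4. The sums overlapped, because sibling replicate 2 lay above mutant replicate 3. On leaving out single libraries the number that rose was 5 without mutant replicate 1, mutant replicate 2 or sibling replicate 3, and 11 without sibling replicate 2. The shares of all genes that passed in either direction were then 16.8%, 15.5%, 17.2% and 19.4%, in the same order.

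DDX56 (ENSDARG00000020913), a nucleolar helicase needed for the large ribosomal subunit, had the largest rise of all members. It measured 141, 108, 73.5 and 67.5 CPM in mutant replicates 1 to 4 and 29.0, 23.9, 24.6 and 26.2 CPM in sibling replicates 1 to 4. The sibling libraries were close to each other, and the lowest mutant library was more than double the highest sibling. The means were 97.5 ± 34.0 and 25.95 ± 2.26 CPM (log2 fold change 1.91 ± 0.231, adjusted p = 5.24e-05), a fold of 3.76.

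DDX51 (ENSDARG00000025854), which acts late in the maturation of large subunit RNA, measured 78.3, 72.7, 53.7 and 70.3 CPM in mutants. In siblings it measured 37.0, 33.9, 21.9 and 22.3 CPM. All mutant libraries were above all siblings, and mutant replicate 3 was the lowest of its group (log2 fold change 1.26 ± 0.22, adjusted p = 0.00089).

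DDX52 (ENSDARG00000100505), the counterpart of yeast Rok1, which works on the small subunit precursor, measured 108, 76.8, 73.6 and 78.8 CPM in mutants. The sibling values were 42.0, 49.8, 28.1 and 34.1 CPM. Mutant replicate 1 stood above 3 mutant libraries that were close together, and the groups did not overlap (log2 fold change 1.13 ± 0.209, adjusted p = 0.0013).

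The other nucleolar genes that rose changed by less than 2-fold. ddx10 (ENSDARG00000061865), counterpart of yeast Dbp4 in the small subunit processome, stood at 80.3 ± 17.1 and 45.9 ± 5.94 CPM in mutants and siblings (0.80 ± 0.19, adjusted p = 0.00724). DHX37 (ENSDARG00000062612), whose yeast counterpart Dhr1 removes a small nucleolar RNA from the small subunit precursor, stood at 119 ± 7.32 and 74.4 ± 8.59 CPM (0.68 ± 0.15, adjusted p = 0.00467). Both passed in every alternative tried. DDX24 (ENSDARG00000104708), related to yeast Mak5 of the large subunit pathway, stood at 73.7 ± 9.64 and 43.4 ± 12.7 CPM (0.77 ± 0.213, adjusted p = 0.0185). Its call was lost without mutant replicate 1, mutant replicate 2, sibling replicate 1 or sibling replicate 3, where the log2 fold change was 0.69, 0.74, 0.74 and 0.62. DDX27 (ENSDARG00000091831), related to yeast Drs1 of the same pathway, stood at 88.4 ± 8.75 and 57.0 ± 12.2 CPM (0.63 ± 0.182, adjusted p = 0.0221). It no longer passed without mutant replicate 1, mutant replicate 2, sibling replicate 3 or sibling replicate 4, with 0.59, 0.64, 0.59 and 0.53, or without both libraries that stood apart, with 0.62.

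A further set of nucleolar genes had positive changes that missed the threshold. DHX33 (ENSDARG00000051785), a DEAH-box protein tied to ribosomal RNA transcription, was nearest to it. It measured 95.6, 103, 86.0 and 77.3 CPM in mutants and 62.3, 82.2, 52.5 and 54.9 CPM in siblings, and mutant replicate 4 fell below sibling replicate 2 (0.52 ± 0.182, adjusted p = 0.0534). It passed without mutant replicate 4 (0.59), without sibling replicate 2 (0.66), and in 8 other alternatives.

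DDX49 (ENSDARG00000012899), related to yeast Dbp8 of small subunit assembly, measured 36.3, 31.6, 30.7 and 20.5 CPM in mutants and 23.5, 19.4, 14.9 and 17.9 CPM in siblings. Only mutant replicate 4 overlapped with the siblings (0.65 ± 0.248, adjusted p = 0.0754), and the gene passed without that library, with 0.80. DDX18 stood at 175 ± 28.8 and 119 ± 41.3 CPM (0.56 ± 0.215, adjusted p = 0.0803), and its change was 0.80 and passed once sibling replicate 2 was left out. DDX31 (0.53 ± 0.25) and DDX54 (0.48 ± 0.19) passed without sibling replicate 2 too, with 0.73 and 0.58, and DDX54 also without mutant replicate 3, with 0.60.

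DDX21 and DDX47 had negative changes, and DDX55 was near 0. DDX21 (ENSDARG00000063626), a nucleolar DEAD-box protein of ribosomal RNA transcription and processing, measured 205, 146, 134 and 164 CPM in mutants and 228, 299, 165 and 206 CPM in siblings. The groups overlapped (-0.47 ± 0.189, adjusted p = 0.0981), and the gene passed downward without sibling replicate 3, with -0.59. DDX47 (ENSDARG00000102353), the counterpart of yeast Rrp3 in small subunit assembly, measured 50.2, 54.9, 36.0 and 42.4 CPM in mutants and 52.8, 83.3, 65.5 and 57.1 CPM in siblings. Mutant replicate 2 lay just above sibling replicate 1 (-0.50 ± 0.201, adjusted p = 0.0966). DDX55, related to yeast Spb4, stood at 19.0 ± 4.15 and 18.3 ± 4.11 CPM (0.05 ± 0.274), and its sign turned on leaving out single libraries.

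Within each group the same libraries were often the highest or the lowest among the nucleolar members. Mutant replicate 1 was the highest mutant library in 11 of 15 members and mutant replicate 3 the lowest in 9. Sibling replicate 2 was the highest sibling library in 9 of 15 members, and sibling replicate 3 the lowest in 10. In the 10 tested members of export, translation and decay, sibling replicate 1 was the highest sibling library in 8 and sibling replicate 2 the lowest in 5. These counts describe 8 libraries, and the members of a library share its depth and its cells. How often each library was the highest or lowest over all genes was not counted, so the pattern cannot be called particular to these members.

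**Figure D2:**
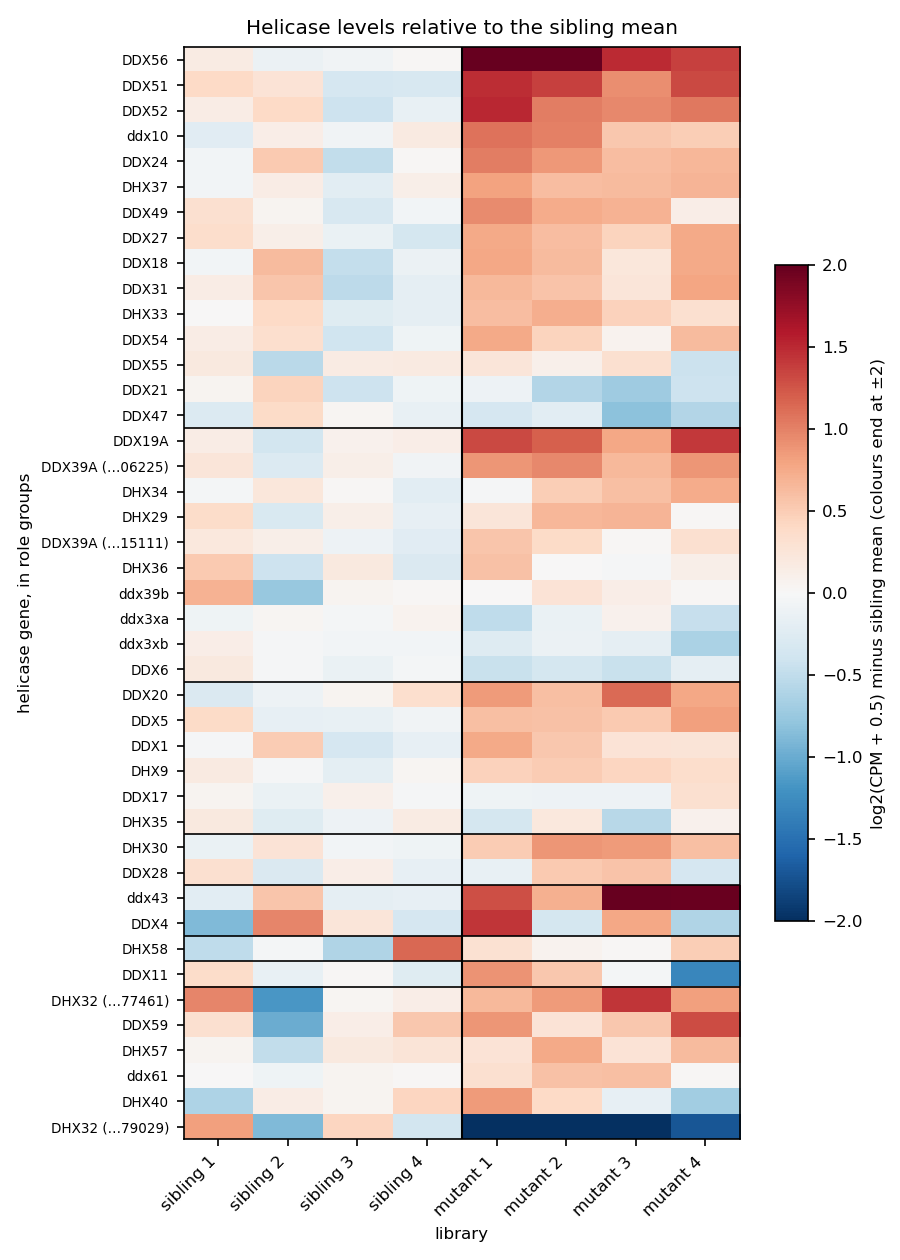
Level of each tested helicase gene (rows, in role groups set apart by black lines) in each library (columns), as log2(CPM + 0.5) minus the mean of the 4 sibling libraries. Nucleolar genes fill the top block of 15 rows, where mutant columns are mostly red, DDX21 and DDX47 are mostly blue, and sibling replicate 2 is redder than the other siblings in 9 rows.

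Ribosome assembly factors that are not helicases rose in large number. From a list of such genes, 76 were tested, of which 51 rose, none fell and 25 did not pass. Thus 67.1% passed, beside 21.3% of all genes, with a median log2 fold change of 0.87. With 1 library left out at a time, 39 to 58 rose. NOC2L (1.52 ± 0.137), a nuclear transport factor of the large subunit precursor, NAT10 (1.503 ± 0.153), the acetyltransferase of ribosomal RNA, and HEATR1 (1.498 ± 0.165), of the small subunit processome, had the smallest adjusted p-values. Their summed level was 8069 to 10506 CPM in mutants and 4484 to 6469 CPM in siblings, without overlap.

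The next role group was that of mRNA export, translation and decay. Of 11 members 10 were tested, 2 rose, none fell and 8 did not pass, a share of 20% that is near the 21.3% of all genes. The genes that rose are DDX19A and 1 of 2 DDX39A identifiers.

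DDX19A (ENSDARG00000005699), named after the human gene, encodes a helicase of the nuclear pore that strips export proteins from mRNA as it leaves. It measured 87.4, 79.4, 59.5 and 93.1 CPM in mutants and 38.6, 26.8, 36.5 and 37.8 CPM in siblings. The lowest mutant value, in replicate 3, was above every sibling (1.19 ± 0.196, adjusted p = 0.000551). GLE1, the cofactor that activates this helicase at the pore, rose as well (0.94 ± 0.209, adjusted p = 0.00467).

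2 identifiers carry the symbol DDX39A, after a human helicase of mRNA export. Its relative DDX39B belongs to the TREX complex, which couples mRNA packaging to export. ENSDARG00000006225 measured 209, 220.3, 178 and 209.9 CPM in mutants and 134, 93.4, 123 and 108 CPM in siblings, without overlap (0.84 ± 0.151, adjusted p = 0.00115). ENSDARG00000015111 measured 299, 263, 205 and 253 CPM in mutants and 235, 219, 188 and 173 CPM in siblings (0.32 ± 0.155, adjusted p = 0.163). In the latter, mutant replicate 3 lay among the siblings.

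The log2 ratio of the first to the second identifier within a library was -0.31 ± 0.138 in mutants and -0.83 ± 0.275 in siblings. The difference was 0.52, from 1 of 4 paralogue pairs compared after the data were seen (exact two-sided permutation test, p = 0.0286, the smallest that 4 against 4 libraries allow, and adjusted p = 0.0381 over the 4 pairs). Reads shared between such copies could be split by the counting, which makes single copies uncertain. ddx39b (ENSDARG00000036069), of the same subfamily, stood at 13.3 ± 1.18 and 13.1 ± 5.37 CPM (0.03 ± 0.326), with a sign that turned on leaving out single libraries.

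Of 22 further genes of TREX and mRNA export 3 rose and 2 fell (22.7%, near the 21.3% of all genes, median log2 fold change 0.09), and with 1 library left out at a time the counts were 1 to 4 up and 2 down. THOC2, the scaffold of the complex that loads DDX39 proteins on mRNA, fell from 443 ± 53.8 to 196 ± 19.6 CPM (-1.18 ± 0.14, adjusted p = 4.49e-05). NUP155, a nuclear pore protein, fell too (-0.52 ± 0.138).

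The members of this role group with negative signs were DDX6, ddx3xb and ddx3xa, and none of them passed. DDX6 (ENSDARG00000061338), which represses translation and promotes decapping, measured 127, 137, 129 and 154 CPM in mutants and 199.9, 171, 159.5 and 169.8 CPM in siblings. The groups did not overlap, yet the change missed the threshold (-0.36 ± 0.139, adjusted p = 0.086). ddx3xb (ENSDARG00000005774), a helicase that aids translation of mRNAs with structured leaders, stood at 297 ± 44.6 and 361 ± 22 CPM, also without overlap (-0.28 ± 0.141, adjusted p = 0.185).

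Its paralogue ddx3xa stood at 125 ± 24.6 and 147 ± 7.27 CPM (-0.24 ± 0.158, adjusted p = 0.34). The ratio of ddx3xa to ddx3xb differed by 0.04 between the groups on the log2 scale, with SDs of 0.228 in mutants and 0.145 in siblings, which was less than the spread between libraries (exact permutation test, p = 0.8). DHX34, of nonsense-mediated decay (0.49 ± 0.3), DHX29, of initiation on structured leaders (0.41 ± 0.257), and DHX36, which opens G-quadruplexes (0.15 ± 0.249), did not pass.

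Among 31 genes of decapping and P-bodies, the bodies in which DDX6 resides, 6 rose and 4 fell (32.3%, beside 21.3% of all genes, median 0.17). With 1 library left out at a time the counts were 5 to 6 up and 1 to 4 down. LSM7, of the ring that binds the ends of mRNAs under decay, rose from 15.6 ± 4.07 to 74.8 ± 9.8 CPM (2.26 ± 0.218). LSM4 (1.23 ± 0.258) and LSM6 (1.93 ± 0.343) rose too, whereas the tested LSM2 identifier, LSM3 and LSM5 did not pass. LSM1 had a negative change that did not pass (-1.84 ± 1.31). Its libraries held only 17, 18, 0 and 0 counts among mutants, and 25, 37, 24 and 26 among siblings. The LSM proteins named here other than LSM1 also serve the splicing machinery. Whether the LSM rises belong to mRNA decay or to splicing was not tested. The decapping scaffold gene EDC4 (1.22 ± 0.163) and tnrc6ba (0.96 ± 0.136), of microRNA silencing, rose as well. The 4 that fell, named after their values were seen, were XRN1 (-0.86 ± 0.208), the exonuclease that follows decapping, TNRC6C (-0.99 ± 0.264) and TNRC6A (-0.50 ± 0.144), relatives of tnrc6ba, and CNOT1 (-0.41 ± 0.118), the scaffold of the deadenylase. On leaving out single libraries the call of TNRC6C was lost without sibling replicate 4 (-0.81), that of TNRC6A without mutant replicates 2 or 4 or sibling replicate 4 (-0.48 to -0.44), and that of CNOT1 without any of 5 libraries, mutant replicates 1, 2 and 4 and sibling replicates 1 and 4 (-0.43 to -0.37).

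Of the 6 nuclear members that act in transcription, RNA processing or snRNP assembly, 3 rose and 3 did not pass, with a median of 0.44. The share of 50% stands beside 21.3% of all genes. DDX5 (ENSDARG00000038068), a transcriptional coactivator that also binds the microprocessor, measured 651, 644, 615 and 757 CPM in mutants and 557, 383, 386 and 407 CPM in siblings. Sibling replicate 1 was high for its group but below every mutant (0.62 ± 0.148, adjusted p = 0.00748).

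DDX17 (ENSDARG00000010873), the close relative of DDX5 with similar partners, stood at 126 ± 19.7 and 125 ± 8.89 CPM (0.02 ± 0.15, adjusted p = 0.958), and its sign turned on leaving out single libraries. The log2 ratio of DDX5 to DDX17 was 2.402 ± 0.0899 in mutants and 1.77 ± 0.24 in siblings, without overlap. The difference of 0.63 was larger than the spread between libraries (exact two-sided permutation test, p = 0.0286, and adjusted p = 0.0381 over the 4 pairs compared after the data were seen).

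DDX20 (ENSDARG00000061204), also called Gemin3, belongs to the SMN complex that loads Sm proteins on small nuclear RNAs. It measured 19.7, 16.5, 23.9 and 18.6 CPM in mutants and 8.61, 9.92, 11.1 and 13.5 CPM in siblings. The groups were apart by a small gap between mutant replicate 2 and sibling replicate 4 (0.86 ± 0.272, adjusted p = 0.0344). The call was lost without mutant replicates 1, 2 or 3 or sibling replicates 1, 2 or 3, where the log2 fold change was 0.76 to 0.94. It was also lost with the replicate block (0.87), with no filter on low counts (0.87) and without both libraries that stood apart (0.84).

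DHX9 (ENSDARG00000079725), an abundant nuclear helicase of RNA and RNA-DNA hybrids, measured 153, 158, 150.3 and 142 CPM in mutants and 126, 109.7, 97.7 and 114 CPM in siblings. Every mutant library was higher, by a modest amount (0.43 ± 0.138, adjusted p = 0.0374). On leaving out single libraries the call was lost with 6 of 8, all but mutant replicate 4 and sibling replicate 1 (0.37 to 0.44). It was also lost with no filter on low counts and without both libraries that stood apart. DDX1, of the tRNA ligase complex (0.45 ± 0.235), and DHX35 (-0.14 ± 0.26) did not pass, and DDX1 passed without both libraries that stood apart, with 0.70.

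Of 22 further genes of the SMN complex, the tRNA ligase complex and the microRNA machinery 6 rose and 1 fell (31.8%, beside 21.3% of all genes, median 0.38). With 1 library left out at a time the counts were 4 to 6 up and 1 down. coil, the scaffold gene of Cajal bodies, rose from 10.98 ± 1.68 to 73.4 ± 9.06 CPM (2.74 ± 0.203, adjusted p = 8.87e-07). The Argonaute gene AGO1 fell (-1.51 ± 0.214), and AGO3 rose (0.95 ± 0.182). ago3a (0.20 ± 0.193), AGO2 (-0.13 ± 0.14) and AGO4 (-0.31 ± 0.155) did not pass.

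**Figure D3:**
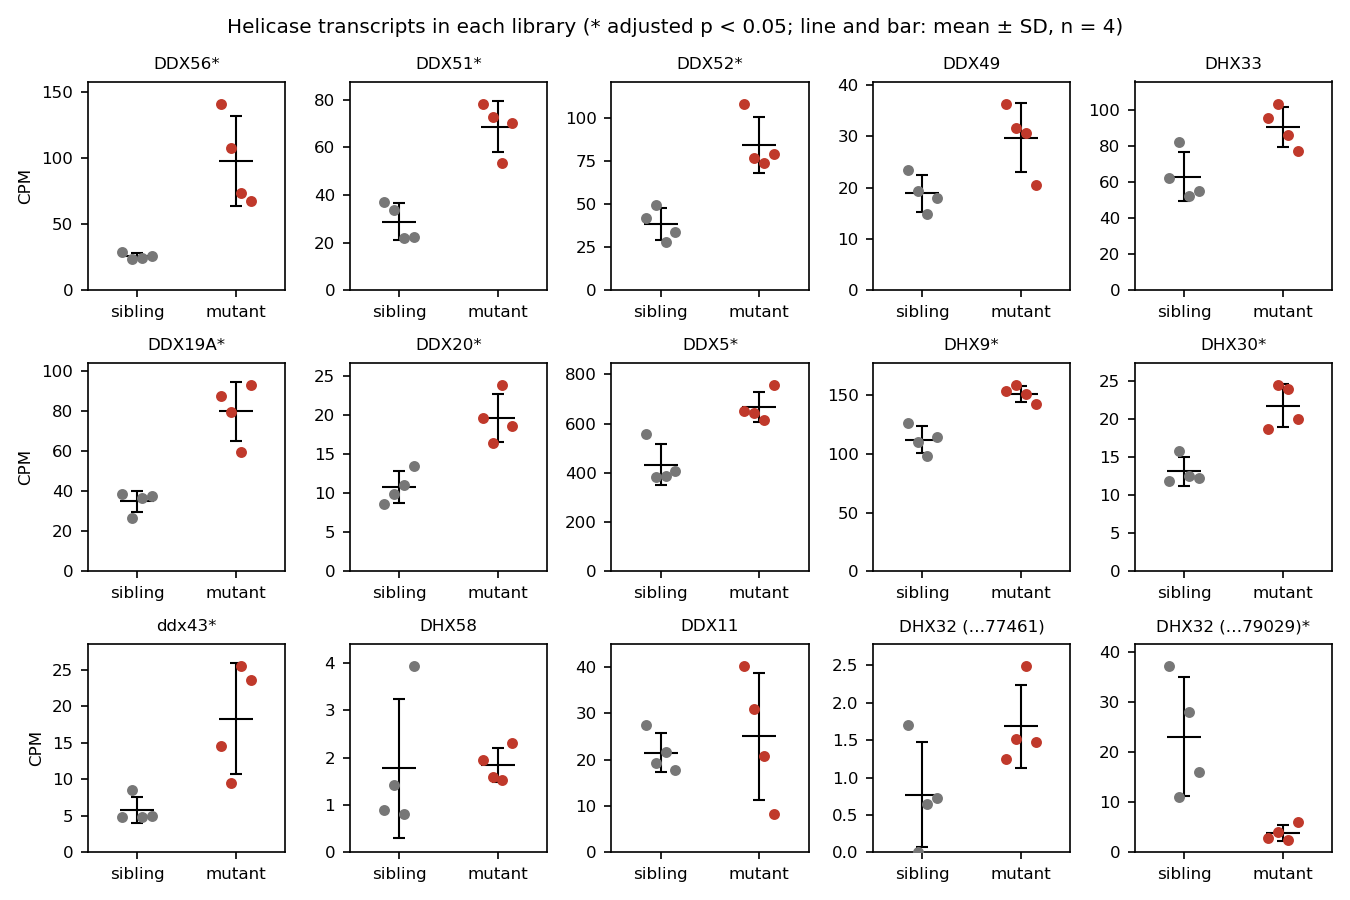
CPM of the 15 helicase genes chosen by the rule for named genes in each sibling (grey) and mutant (red) library, with the mean and SD of 4 libraries in black and every y axis starting at 0. Stars mark an adjusted p under 0.05; in starred panels the red and grey points do not overlap, and only the DHX32 gene with identifier ENSDARG00000079029 is lower in mutants.

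Of both mitochondrial members, DHX30 passed. DHX30 (ENSDARG00000077839), of mitochondrial RNA granules, measured 18.7, 24.5, 23.9 and 19.97 CPM in mutants and 11.8, 15.8, 12.5 and 12.3 CPM in siblings, without overlap (0.73 ± 0.249, adjusted p = 0.0493). It was the called member nearest to the threshold, and its call held without sibling replicate 2 but was lost on leaving out any other single library, with 0.67 to 0.80. It was also lost without a filter on low counts and with the replicate block. DDX28, of mitochondrial ribosome assembly, stood at 5.16 ± 1.77 and 4.47 ± 0.955 CPM (0.21 ± 0.492).

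Of both germ line members, ddx43 rose. ddx43 (ENSDARG00000022614), whose mammalian counterpart is known from the testis, measured 14.5, 9.51, 25.5 and 23.6 CPM in mutants and 4.81, 8.49, 4.89 and 4.98 CPM in siblings. Mutant replicate 2 lay just above sibling replicate 2, the highest of its group (1.66 ± 0.376, adjusted p = 0.00556).

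DDX4 (ENSDARG00000014373), or vasa, the classic marker of zebrafish germ cells, measured 6.96, 1.68, 4.22 and 1.32 CPM in mutants and 1.001, 4.96, 2.77 and 1.69 CPM in siblings, with wide overlap (0.44 ± 0.779). The germ cell marker list, which does not hold DDX4, summed to 8.71 to 13.6 CPM in mutants and 8.4 to 11.2 CPM in siblings. Of its 10 identifiers, buc and NANOS3 had no count in any library, and TDRD7 alone was tested and did not pass (0.16 ± 0.363).

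The antiviral member DHX58 (ENSDARG00000089463), a relative of the cytosolic RNA sensors, was near the limit of detection. Its counts were 25, 20, 16 and 28 in mutants and 9, 15, 10 and 49 in siblings (0.06 ± 0.943, adjusted p = 0.977), and its sign turned on leaving out several single libraries. Of 13 interferon-induced genes tested 1 rose and 2 fell (23.1%, near the 21.3% of all genes). The gene that rose was isg15, from 2.61 ± 0.958 to 29.9 ± 13.5 CPM (3.51 ± 0.404). irf3 (-2.50 ± 0.768) and irf1b (-0.74 ± 0.251) fell, but both calls were unstable, and the groups overlapped for irf1b. Of the 8 libraries left out in turn, irf3 lost its call with 6, all but mutant replicates 3 and 4 (-2.68 to -2.26 where lost), and it passed in the other alternatives. irf1b lost its call with 6 as well, all but sibling replicates 2 and 4 (-0.83 to -0.49 where lost). It was also lost with RLE size factors, voom, no robust fit, the stricter filter, total counts and upper-quartile normalization (-0.74 to -0.68).

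DDX11 (ENSDARG00000011072), a DNA helicase of sister chromatid cohesion that the rule also takes in, varied widely among the mutants. It measured 40.2, 30.9, 20.7 and 8.3 CPM there and 27.4, 19.2, 21.5 and 17.8 CPM in siblings (0.22 ± 0.37, adjusted p = 0.743). The mutant libraries lay on both sides of all sibling libraries, and without mutant replicate 1 the change was -0.10.

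The only member that fell was 1 of 2 genes with the symbol DHX32, a DEAH-box protein of little known function. ENSDARG00000079029 measured 2.89, 4.16, 2.49 and 6 CPM in mutants and 37.2, 11.1, 28.1 and 15.99 CPM in siblings. Sibling libraries differed among themselves by more than 3-fold, yet the lowest exceeded the highest mutant (-2.56 ± 0.425, adjusted p = 0.000594). The ratio of the mean CPM in mutants to that in siblings was 0.168.

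The other DHX32 gene, ENSDARG00000077461, was barely expressed, with counts of 16, 19, 26 and 18 in mutants and 17, 0, 8 and 9 in siblings (1.122 ± 1.23, adjusted p = 0.594). The log2 ratio of the first gene to the second was 0.97 ± 0.719 in mutants and 4.25 ± 0.407 in siblings, without overlap (exact two-sided permutation test, p = 0.0286, and adjusted p = 0.0381 over 4 pairs). This ratio rests on few counts of the second gene.

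None of the other members grouped here as lacking a well defined role passed. ddx61 stood at 140.2 ± 25.4 and 106 ± 4.75 CPM (0.40 ± 0.158, adjusted p = 0.0844), and its change was 0.51 and passed once mutant replicate 4 was left out. It was placed in this group after the symbols were seen, and it was not among the paralogue pairs compared. DHX57 did not overlap between the groups but missed the threshold (0.48 ± 0.224, adjusted p = 0.15). DDX59 (0.74 ± 0.417) and DHX40 (0.17 ± 0.368) overlapped, and the sign of DHX40 turned on leaving out single libraries.

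The helicases of the spliceosome itself that the rule leaves out were read beside the members. All 7 that were counted were tested, 5 rose and none fell (71.4%, beside 21.3% of all genes), with a median log2 fold change of 1.25. DHX16, which drives the catalytic activation of the spliceosome, measured 282, 236, 214 and 292 CPM in mutants and 47.7, 60.4, 32.1 and 48.4 CPM in siblings (2.44 ± 0.195). DHX38, DDX23, DHX8 and DHX15 rose by 1.86 ± 0.168, 1.77 ± 0.15, 1.25 ± 0.142 and 0.99 ± 0.138. All 5 passed in every alternative. DDX42 (-0.54 ± 0.2, adjusted p = 0.0703) and DDX46 (0.10 ± 0.212), whose products act with the U2 particle, did not pass, and DDX42 passed downward without mutant replicate 1, with -0.68. Of the members outside the spliceosome, DDX56 alone had a fitted fold above that of DDX23 or DHX38.

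Helicases with names outside the ddx and dhx series were followed from a list as well. DICER1 and IFIH1 are counted here and in lists above, and neither passed. Of 21 tested 8 rose, 3 fell and 10 did not pass (52.4% passed, beside 21.3% of all genes, median 0.51). With 1 library left out at a time the counts were 7 to 8 up and 1 to 3 down. The spliceosome helicases SNRNP200 and AQR rose by 2.44 ± 0.128 and 1.94 ± 0.13, and EIF4A3, of the exon junction complex, by 1.59 ± 0.179. Outside the spliceosome, SUPV3L1, of mitochondrial RNA decay, rose from 8.91 ± 2.95 to 36.2 ± 3.89 CPM (2.02 ± 0.268). MTREX, of the nuclear exosome (0.78 ± 0.155), and setx, which resolves RNA-DNA hybrids (0.86 ± 0.184), rose as well.

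The genes of the translation initiation helicase eIF4A moved in both directions. eif4a1a rose from 444 ± 62.1 to 817 ± 18.8 CPM (0.88 ± 0.13), and EIF4A2 rose (0.66 ± 0.213), while eif4a1b fell from 153 ± 7.47 to 114 ± 6.18 CPM (-0.43 ± 0.132, adjusted p = 0.031). With 1 library left out at a time, EIF4A2 kept its call without mutant replicate 4 and lost it with any other (0.60 to 0.72), and eif4a1b kept it without sibling replicate 2 and lost it with any other (-0.47 to -0.41). EIF4A2 was also lost with the replicate block (0.66), with no filter on low counts and without both libraries that stood apart, and eif4a1b with no filter and with upper-quartile normalization (-0.36). ASCC3, of ribosome rescue, fell (-1.15 ± 0.21), and MOV10 fell (-0.72 ± 0.212), the latter not without mutant replicates 1, 2 or 4 or sibling replicate 1, with -0.73 to -0.62, nor without both libraries that stood apart.

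The last list was one of genes with G-patch or MIF4G domains, through which cofactors switch helicases on. It also took in AGFG1 and agfg1b, which are not of that class and did not pass. GLE1 and CNOT1 are counted here and in lists above. Of 31 genes tested 10 rose and 3 fell (41.9%, beside 21.3% of all genes, median 0.22). With 1 library left out at a time the counts were 7 to 12 up and 1 to 2 down. EIF4G2 (ENSDARG00000020377, 0.89 ± 0.127), the G-patch gene TFIP11, which works with DHX15 (1.18 ± 0.181), and CHERP (0.84 ± 0.138) had the smallest adjusted p-values. The other identifier of EIF4G2, ENSDARG00000057167, fell from 609 ± 74.8 to 433 ± 36.2 CPM (-0.49 ± 0.133, adjusted p = 0.0162), and lost its call without mutant replicate 1 or sibling replicate 4 (-0.44 and -0.42). CNOT1 and RBM5 (-0.58 ± 0.192) were the other genes of this list that fell, and with 1 library left out at a time RBM5 kept its call only without mutant replicate 1 (-0.66 to -0.42 where lost).

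**Figure D4:**
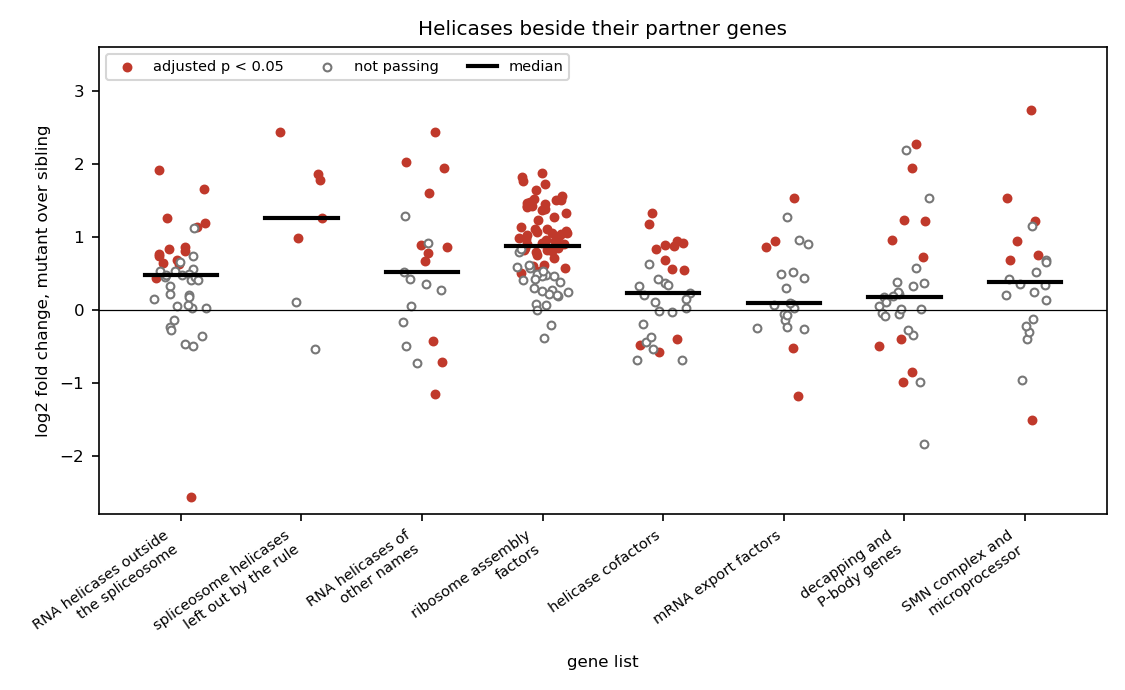
Log2 fold change of mutant over sibling (y axis) for each tested gene of 8 lists (x axis), with black lines at the list medians; red points passed an adjusted p of 0.05. The helicases outside the spliceosome have a median of 0.48, between 1.25 for the spliceosome helicases and 0.09 for mRNA export factors, and in the ribosome assembly list (median 0.87) no red point lies below 0.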

How the data were processed

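The deposited values of the 8 libraries are whole-number counts for each Ensembl gene, and no scaling was apparent in them. Cufflinks 2.2.1, STAR 2.4.2a, Trim Galore, Picard and build GRCz10 appear in the submitters' processing notes. How the counting was done, with which annotation and whether by strand, is not given in the sources used here, so overlapping genes and near-identical copies can share counts. Ribosomal depletion keeps unspliced RNA, which a count per gene does not set apart. Genome positions are not given, because the reference gene table describes another build. Symbols were matched for 29178 of 31901 identifiers, and symbols in capitals follow the human gene. ddx41 and ddx58, the latter an RNA sensor and not a spliceosome helicase, were not analysed here.

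Libraries were compared in R 4.3.3 with edgeR 4.0.16 (TMM, filterByExpr with smallest count 10 and smallest total 15, robust quasi-likelihood fit and test), with Benjamini-Hochberg adjustment over 18289 genes. The SE is the size of the log2 fold change divided by the square root of F. Replicates of a group differed by more than sampling noise (chi-square per degree of freedom 13.99 to 47.24). Paralogue ratios used a pseudocount of 0.5 CPM and exact permutation tests. All 4 pairs were compared after the data were seen, and their adjusted p-values do not account for that choice. The code was tested on simulated data. No source mentions molecular identifiers, and PCR duplicates may therefore be counted.

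The members and lists were chosen with earlier results of these data known. Named in full were the 6 largest rises and falls that passed, the smallest adjusted p of each role group, the 2 members on either side of the threshold, and members that passed while a paralogue moved the other way. From each list of partner genes, up to 3 with the smallest adjusted p were named. Other genes were named after their values were seen. Alternatives were DESeq2 1.42.0, limma 3.58.1 voom, 3 other scalings, no filter, a stricter filter, no robust fit, a replicate block and leaving out libraries.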

Additional observations from a re-analysis of the deposited data

Results flagged for a closer look

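In 7 of 88 groups of 4 libraries, 1 library of a helicase gene lay far from the other 3 by Dixon's criterion at the 95% level, which chance meets in about 1 in 20 groups. Sibling replicate 2 was the highest for ddx43, at 8.49 CPM with the others at 4.81 to 4.98 CPM, and for DHX30, at 15.8 CPM with the others at 11.8 to 12.5 CPM. It was the lowest for DDX55, at 12.1 CPM with the others at 20.1 to 20.4 CPM. Sibling replicate 1 was the highest for ddx3xb, at 393 CPM with the others at 347 to 355 CPM, and for DDX5, at 557 CPM with the others at 383 to 407 CPM. Mutant replicate 4 was the highest for DDX17, at 156 CPM with the others at 116 to 117 CPM. Mutant replicate 1 was the highest for DDX52, at 108 CPM with the others at 73.6 to 78.8 CPM.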

How the results depend on the processing

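Of the 15 members that passed, 10 passed in all 18 alternatives, and no called member changed sign in any of them. With 1 library left out at a time, 9 to 16 of the 43 or 44 members tested rose and 1 to 2 fell. The share of all genes that passed in either direction was then 15.5% to 20.4%. In the other alternatives 13 to 16 of 40 to 44 members rose and 1 fell, where 14.8% to 30.8% of all genes passed. The median log2 fold change of the members was 0.44 to 0.55 over all alternatives. Upper-quartile normalization raised the share of upward calls among all genes from 46.5% to 53.3%, and under it 16 members rose. Members that did not pass and whose sign turned on leaving out single libraries had ranges of -0.10 to 0.51 for DDX11, -0.18 to 0.81 for DHX58, -0.12 to 0.93 for DDX4, -0.016 to 0.35 for DHX36, -0.20 to 0.31 for ddx39b, -0.10 to 0.055 for DDX17, -0.12 to 0.19 for DDX55 and -0.13 to 0.39 for DHX40. For DDX46, which is not a member, the range was -0.0083 to 0.38, and for TDRD9, an RNA helicase of another name that did not pass, -0.017 to 0.46. Without mutant replicate 4 and sibling replicate 2 together the values were -0.16 for DHX58, -0.16 for ddx39b, -0.16 for DDX17 and 0.020 for HFM1, a helicase of another name that did not pass. The cause was not tested. Paralogue differences ranged over 0.39 to 0.59 for DDX39A, 0.54 to 0.74 for DDX5 and DDX17, -3.53 to -2.88 for DHX32 and -0.035 to 0.14 for the ddx3x genes.

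Replicate numbers are shared by the labels of both groups. Deviations of same-numbered libraries correlated by -0.039 to 0.053, within the range of all pairs (-0.067 to 0.071). A shared clutch or day with a small effect could give such values too, so they cannot decide whether same-numbered libraries are paired. With the replicate block 16 members passed, 15 higher and 1 lower, and 3782 genes passed in all.

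Genes with few counts, such as DHX58, DDX4 and the DHX32 gene ENSDARG00000077461, have SEs of 0.779 to 1.23, so only large changes were detectable there.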
